A study of Mus musculus with 10 samples.

Results

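Open chromatin regions (OCRs) that lie within repeat elements were examined in group 2 innate lymphoid cells (ILC2s) of 5 mouse tissues. A region was taken as a repeat member where at least 50% of its bases are soft-masked, that is, written in lower case in the RefSeq copy of the GRCm38 (mm10) genome because they were marked as repeat sequence. Of 50039 regions, 1947 met this limit, and the 10 of them that are among the 20 regions with the most counts over the 10 libraries were left out, so that 1937 repeat members remained. The other 48092 regions are masked over less than 50% of their bases. The lowest total among the 20 regions left out was 396368 counts, and the highest total of a member was 340374. At the mask limit, 3 members with 50.0% of bases masked held 809, 2164 and 1110 counts, and the 3 nearest regions outside it, at 49.9%, held 611, 1106 and 971.

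Accessibility was measured by ATAC-seq, in which the Tn5 transposase inserts sequencing adapters into open DNA. ILC2s were sorted from lung, pancreas, small intestine (SI), large intestine (LI) and bone marrow (BM) of male C57BL/6 mice aged 6 weeks, for which the labels name no treatment, with 2 libraries per tissue and 50000 cells per library. Each library pooled cells of 16 mice (BM, lung and pancreas) or 10 mice (LI and SI). All were sorted as lineage-negative cells. The gate was ST2+CD25+ in BM, with CD45 and CD127 added in LI, lung and pancreas, whereas SI cells were CD45+CD127+KLRG1+ with low Thy1, and BM cells were sorted on another instrument, so gate and tissue cannot be told apart.

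Repeats make up a large part of mammalian genomes. Interspersed repeats are copies of transposable elements, including retrotransposons with long terminal repeats that once served as promoters, and some copies carry binding sites for transcription factors and are open in particular cell types. Tandem repeats are arrays of a unit copied head to tail, such as the satellite DNA of centromeres, the hexamer of telomeres and the genes for 5S ribosomal RNA. A short read from such an array often matches many places, so that its counts depend on how reads were placed.

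The sequences below come from the RefSeq GRCm38 genome, on the strand named. They show the tandem array with the most counts among members and copies from some interspersed groups of similar sequence. Tests of levels were run on single members, and no group of similar sequence was tested as a whole. Only shares of counts were tested over whole sets of members. In the satellite copy (chr9:3032313-3032546, plus strand), 1 unit of 234 bases, capitals mark the 7 bases that differ from the next copy.
satellite copy: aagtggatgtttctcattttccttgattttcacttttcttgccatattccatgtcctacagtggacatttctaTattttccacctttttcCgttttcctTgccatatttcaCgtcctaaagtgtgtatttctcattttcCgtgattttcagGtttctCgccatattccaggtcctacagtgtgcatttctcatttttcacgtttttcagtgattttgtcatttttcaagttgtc

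Members were also grouped by sequence similarity, as described further on, and the groups carry letters because no repeat names were used here. In the windows of 200 bases that follow, capitals mark matches, on either strand, to 9 short motifs. The letters were TGANTCA for AP-1, AGATAA for the GATA factors, TGTGGT for RUNX, AGGAAGT for ETS, CCNCNCCC for KLF, TAGGTCA for ROR, GAAANNGAA for IRF, TNGCGTG for AHR and CCACNAGNG for CTCF. The windows are the most shared stretch of group B that holds a GATA match (chr2:86019834-86020033), of group C with a RUNX match (chr6:149348267-149348466), of group G with a GATA match (chr4:134159600-134159799) and of group L with an AP-1 match (chr7:16681674-16681873), all on the plus strand. The last line is a member of group L that was higher in both intestines (chr7:58455626-58455825, plus strand), and it holds the AP-1 match and a RUNX match in the opposite orientation to the copy above it.
group B: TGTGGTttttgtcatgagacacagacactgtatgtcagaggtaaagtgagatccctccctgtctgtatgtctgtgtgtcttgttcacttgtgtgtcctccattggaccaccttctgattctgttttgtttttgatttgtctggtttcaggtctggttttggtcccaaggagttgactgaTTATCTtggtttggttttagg
group C: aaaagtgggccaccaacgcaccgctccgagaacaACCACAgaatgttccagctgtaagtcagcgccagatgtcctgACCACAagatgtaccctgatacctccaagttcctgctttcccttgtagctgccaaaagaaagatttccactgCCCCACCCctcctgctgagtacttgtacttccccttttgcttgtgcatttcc
group G: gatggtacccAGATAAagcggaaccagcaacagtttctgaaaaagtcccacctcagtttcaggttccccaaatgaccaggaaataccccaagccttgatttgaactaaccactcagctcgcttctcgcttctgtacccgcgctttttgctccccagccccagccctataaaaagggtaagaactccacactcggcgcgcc
group L: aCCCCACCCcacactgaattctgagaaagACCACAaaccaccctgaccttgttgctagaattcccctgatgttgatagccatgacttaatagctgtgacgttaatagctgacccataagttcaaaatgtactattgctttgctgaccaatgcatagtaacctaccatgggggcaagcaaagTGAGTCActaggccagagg
group L, higher in both intestines: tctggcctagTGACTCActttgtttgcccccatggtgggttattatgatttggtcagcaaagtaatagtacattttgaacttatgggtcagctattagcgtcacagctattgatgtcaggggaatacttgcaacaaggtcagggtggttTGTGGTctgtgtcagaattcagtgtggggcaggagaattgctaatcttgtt

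The next sequences are the members with the largest difference in favour of 1 tissue (plus strand, the central 200 bases). They lie at chr4:134982090-134982289 for BM, chr1:170829954-170830153 for LI, chr1:40421248-40421447 for lung, chr10:9497314-9497513 for pancreas and chr15:98738341-98738540 for SI. The lung and SI sequences hold runs of short tandem units, and none of the 9 motifs was found in the lung, pancreas and SI windows.
highest in BM: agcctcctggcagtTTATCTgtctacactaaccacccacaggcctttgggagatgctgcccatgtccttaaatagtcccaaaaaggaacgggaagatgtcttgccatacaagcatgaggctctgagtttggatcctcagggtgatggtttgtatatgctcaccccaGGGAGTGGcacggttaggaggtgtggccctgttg
highest in LI: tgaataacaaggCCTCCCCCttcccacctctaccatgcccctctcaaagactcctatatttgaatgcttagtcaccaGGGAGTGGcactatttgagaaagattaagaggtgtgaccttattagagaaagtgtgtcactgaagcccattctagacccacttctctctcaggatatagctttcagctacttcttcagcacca
highest in Lung: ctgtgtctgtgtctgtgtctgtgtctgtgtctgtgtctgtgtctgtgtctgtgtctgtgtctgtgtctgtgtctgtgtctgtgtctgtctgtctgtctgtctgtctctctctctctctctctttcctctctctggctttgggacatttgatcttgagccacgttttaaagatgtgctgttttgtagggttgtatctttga
highest in Pancreas: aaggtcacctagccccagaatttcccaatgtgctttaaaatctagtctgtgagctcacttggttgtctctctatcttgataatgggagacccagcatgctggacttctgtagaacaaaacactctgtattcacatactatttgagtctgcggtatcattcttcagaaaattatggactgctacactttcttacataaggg
highest in SI: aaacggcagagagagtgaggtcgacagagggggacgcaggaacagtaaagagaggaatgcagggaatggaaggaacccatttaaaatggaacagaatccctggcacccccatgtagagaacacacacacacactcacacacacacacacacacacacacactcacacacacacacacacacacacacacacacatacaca

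Total counts per library lay between 10282987 and 32797872, and LI replicate 1 (13290901) and pancreas replicate 2 (10282987) were the smallest. The 20 regions left out held 29.5% of the counts in LI replicate 1 and 26.8% in pancreas replicate 2, against 8.60% to 20.4% in the other 8 libraries. Results that rest on these libraries are therefore given with and without them. Promoters of all 11 ILC2 genes on the marker list, including *Gata3*, *Il1rl1* and *Il7r*, had regions, with summed levels of 276 to 458 CPM (counts scaled to library size) per library. No promoter region was listed for the 4 B cell, 4 mast cell, 3 NK cell and ILC1, 2 ILC3 and 3 acinar genes. Regions were listed at 3 of 6 T cell genes (5.80 to 13.9 CPM), 1 of 5 myeloid genes (*Spi1*, 0.386 to 9.29 CPM, highest in SI replicate 1) and 1 of 3 epithelial genes (*Cdh1*, 2.89 to 9.49 CPM). In bulk libraries, a smaller share of open cells and less open chromatin per cell cannot be told apart. Among erythroid genes, the globin genes *Hbb-bs* and *Hba-a1* summed to 24.7 and 14.03 CPM in BM and to between 2.195 and 4.77 CPM in the other libraries.

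Repeat members lay farther from genes than the rest. Of the members, 1100 (56.8%) were intergenic, 770 (39.8%) lay within genes and 67 (3.46%) at promoters (from 1000 bp before to 100 bp after a TSS, where transcription starts), whereas 31.5% of the other regions were intergenic, 48.4% lay within genes and 20.1% at promoters. The median distance to a TSS was 16016 bp for members and 9983 bp for the other regions. Exons held 0.878% of members and 15.4% of the other regions. Members had a median GC content of 45.8% against 50.1%, a median width of 511 bp against 533 bp, and a median total of 883 counts against 1600.

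How distinct each sequence is was measured as the share of its 24-base words that occur once in the genome. The median was 59.5% in members and 99.8% in the other regions. Among members, 179 had no such word, and 1173 had at least 50%. All 179 held counts (267 to 243601, median 1132) although the study states that uniquely mapped reads were kept. Members also differed from the other regions in the motifs they hold. RUNX matches, sites of the factor family that includes RUNX1 and RUNX3 of lymphocytes, occurred in 50.5% of members and 41.7% of the other regions, and GATA matches in 26.6% and 27.1%. AP-1 matches, bound by JUN, FOS and BATF proteins, occurred in 20.6% and 25.2%, KLF matches in 43.6% and 56.2%, and CTCF matches in 6.40% and 11.3%. These shares are descriptions, and a match does not show binding.

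Members were split into 5 kinds by sequence, with the chromosome used for the satellite array and annotated rRNA genes for the 5S array, and not by their levels. A satellite array on chromosome 9 held 25 members, between positions 3001901 and 3038343, whose sequence repeats with a period of 233 to 237 bases (234 in 17 of them). The 5S rRNA array on chromosome 8 held 37 members, between positions 123538707 and 123622373, each at an annotated rRNA gene. A further 194 members were tandem repeats of other units (at least 55% identity with themselves after a shift of up to 300 bases), of which 29 had the telomere hexamer as their unit. The remaining members were 217 with under 10% of their words unique (other multicopy) and 1464 with 10% or more (partly unique, median 67.1%).

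**Figure D1:**
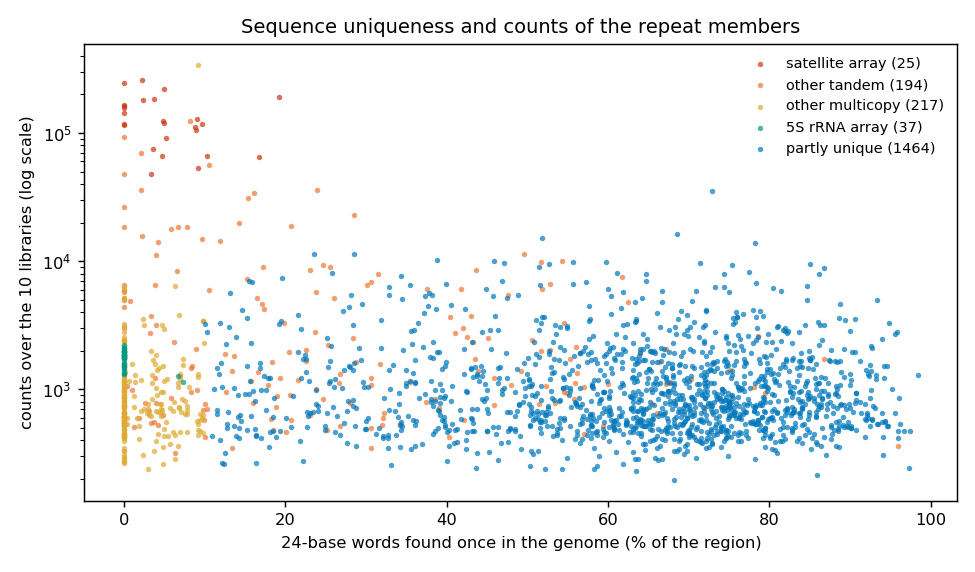
Each point is a member with at least 1 count, placed by the share of its 24-base words that are unique in the genome (x axis, percent) and by its counts over the 10 libraries (y axis, log scale), with colours for the 5 kinds and their numbers in the key. The satellite members lie at the top left with 48067 to 258036 counts each, whereas the partly unique members have a median of 820.5 counts.

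The share of counts in repeat members varied between libraries. Repeat members took 3.87% and 3.94% of the counts (outside the 20 regions left out) in BM, 3.27% and 2.79% in lung, 4.23% and 3.09% in SI, 8.23% and 3.43% in LI, and 5.23% and 8.25% in pancreas. LI replicate 1 and pancreas replicate 2 thus stood above all the others, and the replicates of LI differed by more than the means of any pair of tissues. By an exact permutation of the 10 libraries over the tissues (945 arrangements, one-sided for a larger ratio of between-tissue to within-tissue variation), the share did not differ between tissues (p = 0.222, adjusted p = 0.349 over the 8 shares tested).

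The satellite array alone made up most of this spread. It took 5.19% of the counts in LI replicate 1 and 1.13% in LI replicate 2, 2.74% and 5.08% in pancreas, and between 0.966% and 1.98% in the other 6 libraries. Its median member stood at 1642 CPM in LI replicate 1 and 353.7 in LI replicate 2, at 833 and 1480 CPM in pancreas, 558 and 625 CPM in BM, 389.5 and 297 CPM in lung, and 578 and 372 CPM in SI. LI replicate 1 exceeded LI replicate 2 by a median of 2.197 (log2), in all 25 members by more than 1. The edgeR test across the 5 tissues (adjusted p under 0.05) called all 25 satellite members, but called 0 with a robust estimate of the spread and 0 without pancreas replicate 2, and 25 without LI replicate 1 and pancreas replicate 2 together. DESeq2 called 0, with 1 of the 25 at an unadjusted p under 0.05. These members are near-identical copies, so they are not independent of each other and the placing of their reads is uncertain.

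**Figure D2:**
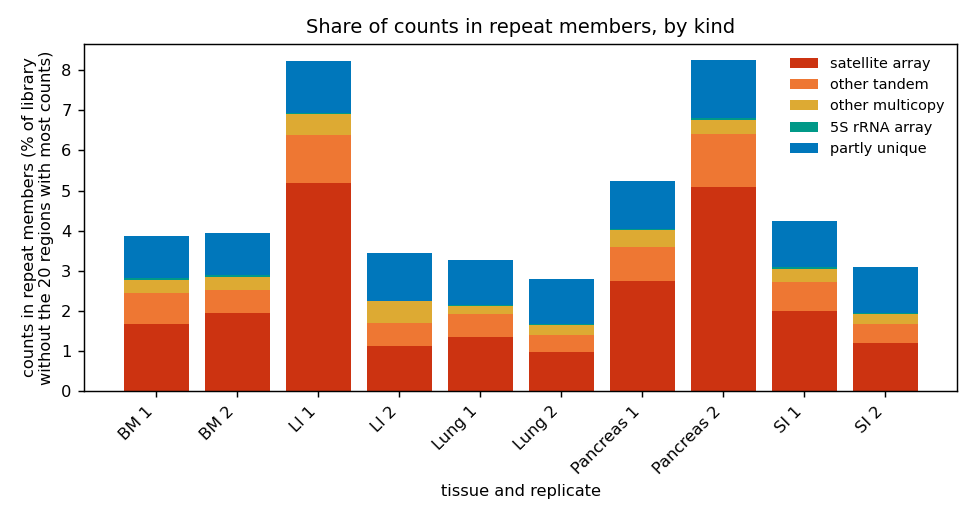
Bars show the percent of each library's counts (y axis, from 0, without the 20 regions with the most counts) that fell in repeat members, split by kind, for the 10 libraries (x axis). LI replicate 1 and pancreas replicate 2 reach 8.23% and 8.25%, mainly through the satellite array, whereas the partly unique members take 1.06% to 1.44% in every library.

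The telomere-type members followed a similar order. Their median member stood at 103 and 41.1 CPM in LI, 83.8 and 85.5 CPM in pancreas, 69.1 and 56.5 CPM in BM, 52.2 and 38.1 CPM in SI, and 38.7 and 33.95 CPM in lung. Both lung libraries were below the 6 libraries of BM, LI and pancreas, while the LI replicates lay far apart. Of the 29, 20 differed between tissues (69.0%, against 44.2% of all regions), and DESeq2 called 21. The count was 25 without LI replicate 1, 1 without pancreas replicate 2, 5 without both, and 5 in the robust fit.

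The 5S rRNA array holds genes that make the small RNA of the large ribosomal subunit. By the tissue means, BM ranked first in 35 of its 37 members and LI last in 35. By the calls defined further on, 0 were highest in BM and 0 lowest in LI. The median member has 0% unique words, so the members are not independent of each other and the placing of their reads is uncertain. The median member stood at 12.6 and 9.02 CPM in BM, 7.41 and 5.34 CPM in LI, 7.37 and 7.09 CPM in lung, 7.48 and 8.84 CPM in pancreas, and 8.23 and 9.51 CPM in SI. The BM replicates straddled SI replicate 2, so BM and SI were not apart beyond their spread. The edgeR test was passed by 1 member (2.70%, against 44.2% of all regions).

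The other multicopy members gave the only share that differed between tissues after adjustment. It was 0.532% in both LI libraries, 0.322% and 0.320% in BM, 0.408% and 0.358% in pancreas, 0.346% and 0.246% in SI, and 0.194% and 0.230% in lung (exact permutation p = 0.00529, adjusted p = 0.0423). This rested on 1 member, the one with the most counts of all (chr2:69355354-69355853), which lies 12988 bp upstream of *Abcb11*, the bile salt export pump. It stood at 3120 and 3280 CPM in LI, 2302 and 1471 in pancreas, 1622 and 1660 in BM, 1454 and 966 in SI, and 576 and 953 in lung, with an edgeR adjusted p of 0.000357 across tissues. Of its 24-base words, 22.2% also occur in the mitochondrial genome and 9.22% are unique in the nuclear and mitochondrial sequence together, and the part of mitochondrial reads in its level was not tested. Without it, the other 216 members took 0.115% to 0.177% of the counts in every library (exact permutation p = 0.492).

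Replicate gaps differed between the kinds. LI replicate 1 exceeded LI replicate 2 by more than 1 (log2) in 246 of 1934 members, including 109 of 194 tandem, 19 of 217 multicopy and 93 of 1461 partly unique members, against 3.16% of all regions. Pancreas replicate 2 exceeded replicate 1 in the same way in 203 members, of which 1 was satellite, 64 other tandem, 30 other multicopy and 108 partly unique, against 4.102% of all regions. The median gap between replicates without regard to sign was 0.28 to 0.38 (log2) in members and 0.21 to 0.33 in all regions.

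Which repeat members differed between tissues was tested next. With edgeR's quasi-likelihood F test, 757 of the 1934 members with a count (39.1%) passed an adjusted p under 0.05, against a background of 44.2% of all 49981 regions tested. The share was 37.4% (546 of 1461) in partly unique members, so repeat members were called at a rate close to and under that of all regions. Without LI replicate 1 and pancreas replicate 2, 523 members (27.04%) and 31.7% of all regions passed. Members just inside the mask limit (50 to 55% masked) were called in 42.0% and regions just outside it (45 to 50%) in 44.99%.

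A region was called highest in a tissue when it exceeded each of the other 4 tissues with an unadjusted edgeR p under 0.05 in each contrast, and lowest in the same way. In all, 163 members were highest in 1 tissue and 174 lowest, and 308 members had at least 1 such call. Depending on the tissue, 0.672% to 2.95% of members were highest, against 1.3% to 4.5% of all regions. From 0.155% to 4.498% of members were lowest, against 0.132% to 6.63% of all regions. With all 10 libraries, members exceeded the share of all regions only for highest in pancreas and lowest in LI. Without LI replicate 1 and pancreas replicate 2, they also exceeded it for highest in lung. At an adjusted p in each contrast, 41 members were highest and 84 lowest, and shares of all regions at this limit are not given here. The median log2 difference between a tissue and the other 4 was -0.01 for BM, 0.06 for LI, -0.10 for lung, 0.12 for pancreas and -0.07 for SI over members, and between -0.02 and 0.02 over all regions. In partly unique members it was -0.04, 0.05, -0.02, 0.07 and -0.03 in the same order.

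**Figure D3:**
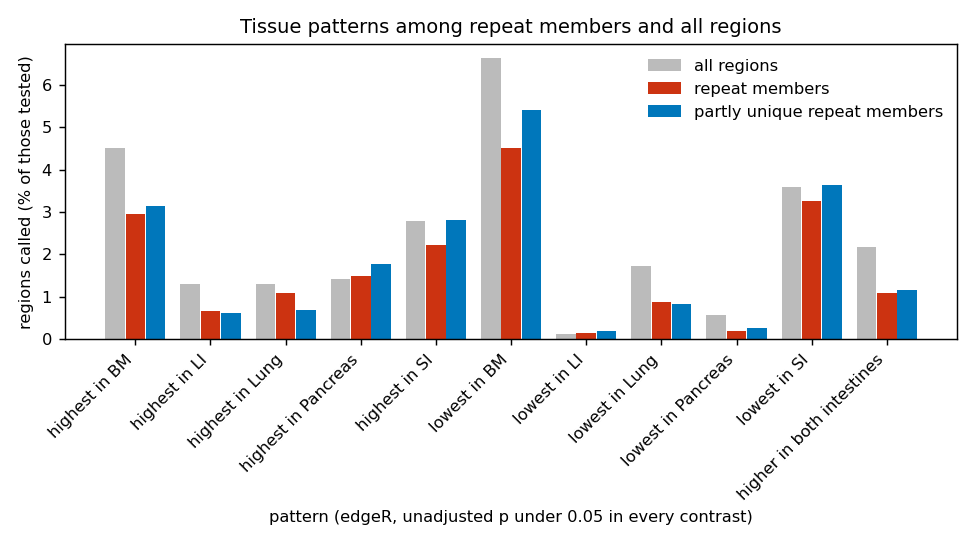
Bars give the percent of tested regions (y axis, from 0) with each tissue pattern (x axis) among all 49981 regions, the 1934 repeat members and the 1461 partly unique members. Lowest in BM was the most frequent pattern in all 3 sets (6.63%, 4.498% and 5.41%). With all 10 libraries, repeat members together were under the background in every pattern except highest in pancreas (1.50% against 1.43%) and lowest in LI (0.155% against 0.132%).

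In BM, 57 members (2.95%) were highest, against 4.5% of all regions, and 87 (4.498%) were lowest, against 6.63%. The member with the largest difference (chr4:134981940-134982439, intergenic, 51210 bp from the TSS of *Syf2*, a splicing factor) stood at 14.8 and 6.17 CPM in BM, 1.66 and 0.782 in LI, 1.02 and 0.386 CPM in lung, 0.883 and 0.431 CPM in pancreas, and 0.722 and 0.453 in SI. Both BM libraries were above the other 8, by 3.17 ± 0.58 (log2, SE) over the nearest tissue, LI (largest adjusted p of the 4 contrasts 0.000761). Another, 5501 bp upstream of *Nudt4* (chr10:95569397-95569896), stood at 6.02 and 2.76 CPM in BM and at 0.0276 to 0.915 CPM elsewhere. The third, in an intron of *Atg10*, an enzyme of autophagy (chr13:90939147-90939646), stood at 7.49 and 2.99 CPM against 0.166 to 1.22 CPM. All 3 hold a GATA match and a KLF match.

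GATA matches occurred in 30 of the 57 members highest in BM (52.6%), against 26.6% of all members. The same motif was in 39.8% of the other regions highest in BM, against 27.1% of all other regions. Seen from the motif, 5.85% of members with a GATA match were highest in BM and 1.90% of those without. Of the 57, 7 belong to group B and 4 to group G. These are groups of similar sequence in which 90% and 87.1% of members hold a GATA match, so the 57 are not all independent. GATA3 is a defining factor of ILC2s and GATA1 of red cell precursors. BM replicate 1 was above replicate 2 in 38 of the 57, by a median of 0.29 (log2) against 0.02 in all regions, and the globin promoters were also higher in BM replicate 1 (24.7 against 14.03 CPM). The part of other cells in these members was not tested. Without BM replicate 1, 23 members were highest in BM, and without pancreas replicate 1, 25. With a trend in GC content and width removed, 93 were highest and 65 lowest in BM, and with library size alone 44 and 113.

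Among the members lowest in BM, AP-1 matches were frequent. They occurred in 45 of 87 (51.7%), against 20.6% of all members, and in 49.3% of the other regions lowest in BM, against 25.2% of all other regions. Of the 87, 4 belong to group L, in which 86.7% of members hold an AP-1 match. The member with the largest fall lies in an intron of *Adam19*, a membrane metalloprotease (chr11:46058817-46059353, 3101 bp from its TSS). It stood at 0.979 and 1.47 CPM in BM, 11.9 and 8.95 in LI, 10.5 and 13.5 CPM in lung, 14.3 and 15.4 CPM in pancreas, and 6.07 and 11.01 in SI, a log2 difference of BM from the nearest tissue, SI, of -2.80 ± 0.35 (SE; largest edgeR adjusted p 4.3e-05). The second, 12676 bp upstream of *Gbp6*, an interferon-induced GTPase (chr5:105306048-105306701), stood at 0.685 and 0.874 CPM in BM and 3.56 to 12.7 CPM elsewhere, and holds 2 AP-1 and 2 RUNX matches. Both BM libraries were below the other 8 in 85 of the 87.

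In LI, 13 members (0.672%) were highest, against 1.3% of all regions, and 3 (0.155%) were lowest, against 0.132%. The leading member lies in an intron of *Atf6*, a factor of the endoplasmic reticulum stress response (chr1:170829804-170830303). It stood at 5.23 and 4.08 CPM in LI, 0.930 and 0.690 in BM, 0.627 and 0.690 CPM in lung, 1.296 and 2.27 CPM in pancreas, and 1.20 and 1.08 in SI. Its difference from the nearest tissue, pancreas, was 1.41 ± 0.49 (log2, SE), with an adjusted p of 0.139. A tandem member at an exon of the zinc finger gene *Zfp26* (chr9:20428575-20429074) stood at 10.2 and 4.65 CPM in LI and at 0.966 to 3.24 CPM elsewhere, with an edgeR adjusted p of 0.134. Its difference from the nearest tissue was 1.29 (log2), and 0.64 without LI replicate 1, where the call was lost. A member on chromosome 10 (chr10:96874385-96874922) stood at 11.4 and 10.7 CPM in LI and 3.68 to 6.03 elsewhere (edgeR adjusted p = 0.0347). Of the members lowest in LI, the first (chr1:131566023-131566538, 32833 bp upstream of the vasopressin receptor gene *Avpr1b*) stood at 1.74 and 3.09 CPM in LI and 4.06 to 10.8 CPM elsewhere, with an adjusted p of 0.156. The second (chr15:81507113-81507650, 41066 bp from the TSS of *Rbx1*, a subunit of ubiquitin ligases) stood at 2.62 and 1.87 CPM in LI and 3.29 to 4.95 elsewhere. Its largest edgeR adjusted p of the contrasts was 0.148, and its adjusted p in the F test across tissues was 0.0709. The LI counts were small and moved with the fit, to 7 highest and 7 lowest with library size alone, to 8 and 7 with the GC and width trend removed, and to 6 highest without pancreas replicate 1. The count lowest in LI was 15 without LI replicate 1, 7 without LI replicate 2, and 1 without lung replicate 1, pancreas replicate 2 or SI replicate 2.

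In lung, 21 members (1.09%) were highest, against 1.3% of all regions, and 11 of the 21 were tandem repeats, although tandem repeats other than satellite and 5S make up 194 of the 1937 members. The leading member lies 8222 bp upstream of *Il1rl1* (chr1:40421098-40421597), the gene of ST2, the receptor for IL-33. It stood at 11.2 and 28.1 CPM in lung, 4.21 and 2.81 CPM in BM, 1.48 and 1.39 CPM in LI, 5.12 and 3.34 CPM in pancreas, and 0.818 and 0.314 in SI. Lung was above the nearest tissue, pancreas, by 2.19 ± 0.43 (log2, SE; largest adjusted p 0.00737). The second, near the hair keratin gene *Krt83* (chr15:101484185-101484684), stood at 13.6 and 23.8 CPM in lung and 1.48 to 5.68 CPM elsewhere, and the third, in an intron of *Plod2*, a collagen lysyl hydroxylase (chr9:92553569-92554068), at 4.43 and 7.56 CPM against 0.697 to 2.05. In all 3, lung replicate 2, the deepest library, was above replicate 1. With all libraries, 10 of the 21 were partly unique. Without lung replicate 2, 7 members were highest in lung.

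The 17 members lowest in lung (0.879%) compare with 1.72% of all regions, and 0 of them passed an adjusted p in each contrast. The first (chr5:11177311-11177810, 5454 bp upstream of *Gm5861*) stood at 0.314 and 0.193 CPM in lung, 0.824 and 1.29 CPM in pancreas, and 6.89 and 3.34 in SI, which was the highest tissue. The second lies in an intron of *Fam118b* (chr9:35224933-35225432) and stood at 0.274 and 0.193 CPM in lung and at 0.506 to 4.04 CPM elsewhere, again with SI highest. The count of members lowest in lung was 87 without lung replicate 1, 35 without SI replicate 2, 3 without lung replicate 2, 9 without BM replicate 1, 10 without LI replicate 1 and 9 without pancreas replicate 2, so it rests on single libraries. The split between highest and lowest in lung was 38 and 8 with library size alone and 34 and 14 with the GC and width trend removed.

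In pancreas, 29 members (1.50%) were highest, against 1.43% of all regions, and 26 of them were partly unique. The leading member (chr10:9497090-9497737, intergenic, 177794 bp from the TSS of *Samd5*) stood at 11.1 and 12.9 CPM in pancreas, 3.33 and 3.41 CPM in BM, 4.01 and 2.39 CPM in LI, 3.80 and 3.45 in lung, and 0.626 and 0.766 in SI, and holds 2 AP-1 matches and a GATA match. Pancreas was above lung by 1.73 ± 0.32 (log2, SE; largest adjusted p 0.00581), and it was the only member of the 29 past an adjusted p in each contrast. A member in *0610005C13Rik* and in *Bcat2*, an enzyme of branched-chain amino acid breakdown (chr7:45573869-45574368), stood at 10.5 and 10.9 CPM in pancreas and 0.881 to 4.30 CPM elsewhere. A member in an intron of *Btbd8* (chr5:107447415-107447966) stood at 14.8 and 13.6 CPM against 1.91 to 6.63. In these 3 members the pancreas replicates lay close together.

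The count for pancreas depended on single libraries, and the shares of all regions in these fits are not given here. It was 111 without LI replicate 1 and 79 without pancreas replicate 1, but 15 without pancreas replicate 2, 16 without LI replicate 2, and 19 without LI replicate 1 and pancreas replicate 2 together. Only 4 members (0.207%) were lowest in pancreas, against 0.572% of all regions. The first, 18509 bp upstream of the transcription factor gene *Foxo3* (chr10:42294954-42295453), stood at 1.12 and 1.402 CPM in pancreas and 2.62 to 3.92 CPM elsewhere, and the second, in an intron of *Sox5* (chr6:143883343-143883846), at 0.883 and 1.19 CPM against 2.17 to 3.33. Neither passed an adjusted p in each contrast (edgeR, 0.152 and 0.201). The count lowest in pancreas was 9 without pancreas replicate 2, 2 without lung replicate 1 and 1 without SI replicate 2. The split was 25 highest and 8 lowest with library size alone, and 22 and 11 with the GC and width trend removed.

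In SI, 43 members (2.22%) were highest, against 2.8% of all regions, and 63 (3.26%) were lowest, against 3.59%. The leading member overlaps an exon of *Arf3*, a small GTPase of vesicle traffic (chr15:98738191-98738690). It stood at 6.11 and 8.88 CPM in SI, 0.685 and 0.552 CPM in BM, 1.57 and 1.30 CPM in LI, 0.470 and 0.469 in lung, and 0.589 and 1.94 in pancreas, above LI by 2.40 ± 0.50 (log2, SE; largest adjusted p 0.00658). A member in an intron of *Copb1*, a coat protein of Golgi vesicles (chr7:114228147-114228646), stood at 8.18 and 3.48 CPM in SI and 0.471 to 2.01 CPM elsewhere. A member 9812 bp upstream of *Cysltr2*, a receptor for cysteinyl leukotrienes (chr14:73058676-73059175), stood at 7.22 and 5.89 CPM in SI and 0.706 to 2.59 elsewhere. IRF matches, sites of interferon regulatory factors, occurred in 16 of the 43 (37.2%), against 18.8% of all members and 25.5% of the other regions highest in SI. They were also frequent in the members highest in BM, at 19 of 57 (33.3%), against 11.7% of the other regions highest in BM. The count was 19 without SI replicate 1 and 22 without LI replicate 2.

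The member with the largest fall in SI lies 9572 bp upstream of *Il1rl1* (chr1:40419719-40420277), beside the lung member above. It stood at 1.78 and 1.60 CPM in SI, 8.61 and 8.74 CPM in BM, 9.15 and 11.8 CPM in LI, 16.4 and 23.99 in lung, and 17.4 and 16.1 in pancreas. The log2 difference of SI from the nearest tissue, BM, was -2.36 ± 0.28 (SE; largest edgeR adjusted p 5.5e-05). SI was the lowest tissue in both of these neighbouring repeats. ST2 itself was part of the sort gate in the other 4 tissues and not in SI, so gate and tissue cannot be told apart here. The next member, 12063 bp upstream of the potassium channel gene *Kcnk5* (chr14:20193593-20194097), stood at 0.193 and 0.627 CPM in SI and 1.91 to 3.96 CPM elsewhere. The split between highest and lowest in SI was 43 and 63, but 73 and 40 with library size alone and 60 and 59 with the GC and width trend removed.

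Members open more in each intestine than in each of the other 3 tissues numbered 21 (1.09%), against 2.18% of all regions. RUNX matches occurred in 16 of them (76.2%), against 50.5% of all members and 65.7% of the other regions with this pattern. Of the 21, 3 belong to group L, in which 80.0% of members hold a RUNX match. The member with the highest level of those named belongs to group L (chr7:58455466-58456021, intergenic, the sequence printed above) and stood at 39.5 and 69.6 CPM in LI, 38.6 and 45.6 in SI, 14.98 and 12.1 CPM in lung, 9.66 and 9.28 CPM in pancreas, and 4.75 and 5.75 in BM. The 4 intestinal libraries were above the other 6, by at least 1.64 ± 0.25 (log2, SE) in the weakest of the 6 contrasts, SI against lung (largest adjusted p 0.000254). A member 12855 bp upstream of *Akap12*, a scaffold for protein kinase A (chr10:4253224-4253723), stood at 3.84 and 4.52 CPM in LI and 3.47 and 5.99 in SI, against 0.177 to 1.62 CPM. A member in an intron of *Tbck* (chr3:132753440-132753939) stood at 4.88 and 7.65 CPM in LI and 6.79 and 4.42 in SI, against 0.471 to 3.24. The count was 9 without pancreas replicate 1 and 2 at an adjusted p in each contrast.

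**Figure D4:**
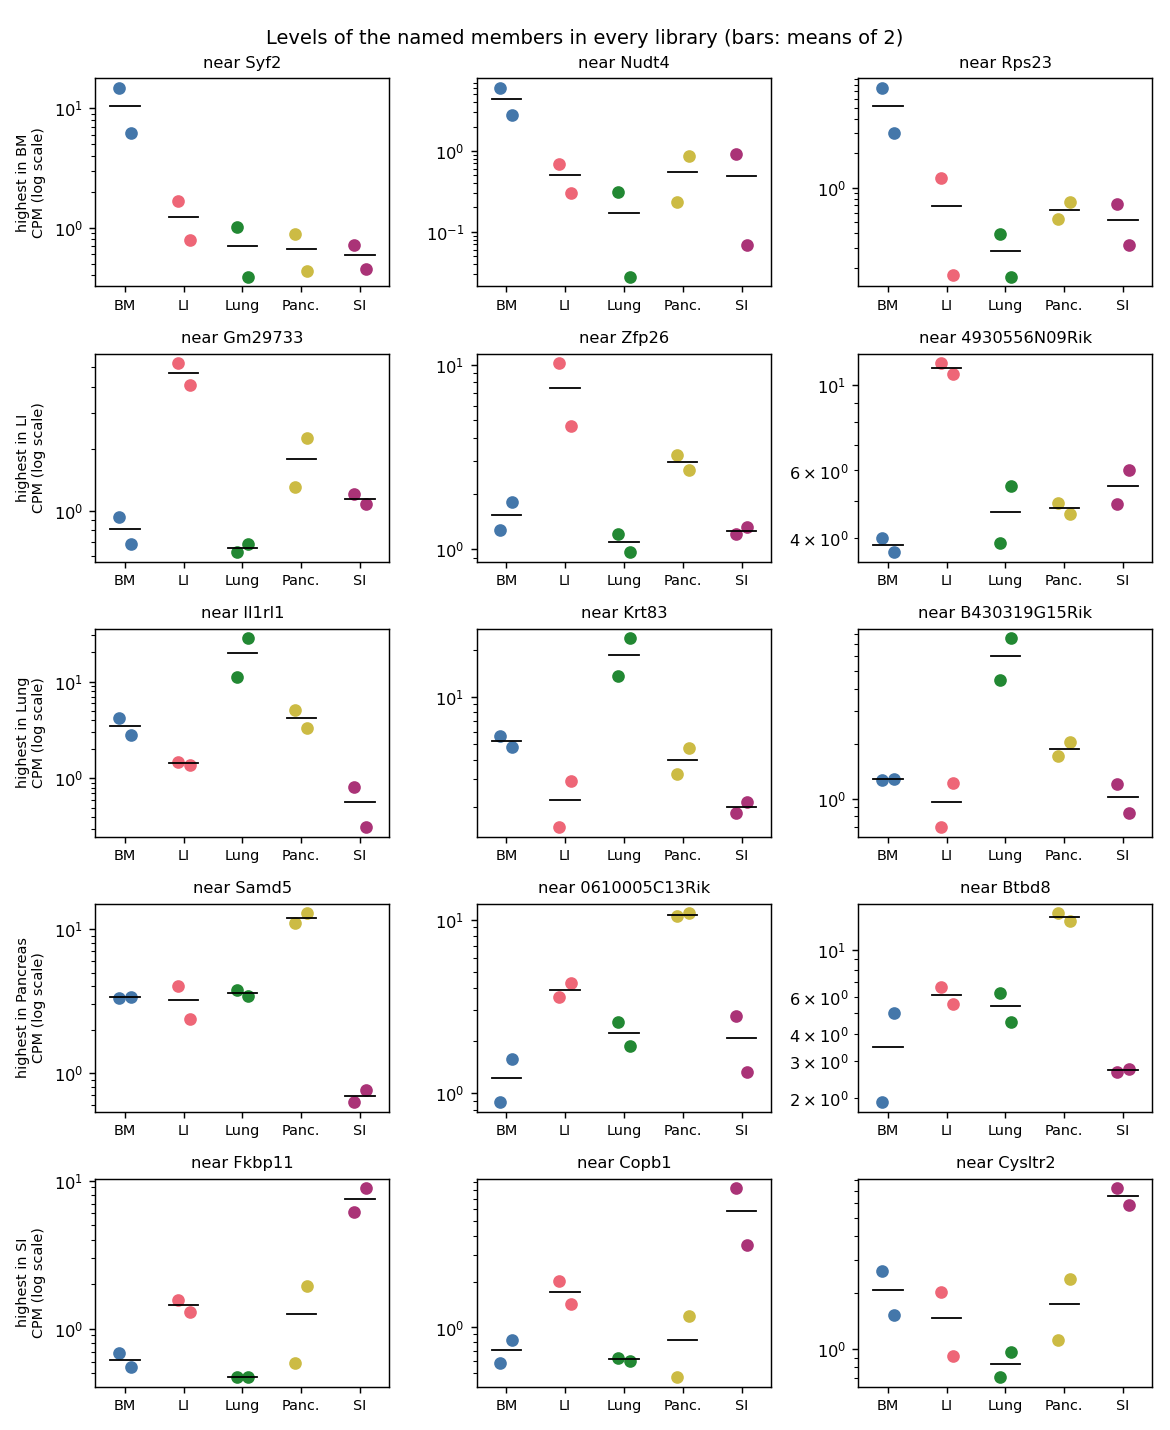
Each panel shows 1 of the 3 named members highest in a tissue (rows: BM, LI, lung, pancreas, SI), with the CPM of both libraries of each tissue as points (y axis, log scale), their means as bars, and the gene with the nearest TSS in the title. All 15 members were chosen so that both libraries of the row's tissue lie above the other 8. The replicates of the row's tissue are more than 2-fold apart in the 3 BM members and in those near *Zfp26* (LI), *Il1rl1* (lung) and *Copb1* (SI).

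Regions nearest to listed genes of ILC2 biology numbered 678, of which 15 were repeat members, against 1937 of all 50039 regions. Of 64 genes on lists of cytokines and effectors, receptors, transcription factors, and homing molecules, 12 had at least 1 member for which theirs was the nearest TSS, with 15 members in all. Of the 15, 8 differed between tissues, against 55.9% of the 678 regions nearest to these genes and 44.2% of all regions. In addition, 5 of the 15 were highest in a tissue, against 1.3% to 4.5% of all regions for a single tissue. Of the same 15, 3 were lowest in a tissue, against 0.132% to 6.63% for a single tissue. Shares of all regions pooled over the tissues are not given here. Assigning a member to its closest TSS says nothing of the gene it may regulate.

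In the members near these genes that differed, lung or SI was often the highest tissue. Those at *Il1rl1* have been given above, and a member 13493 bp upstream of *Arg1*, arginase 1 of ILC2s and macrophages (chr10:24940713-24941212), had a like order, with 5.92 and 12.6 CPM in lung, 3.47 and 2.49 in BM, 0.942 and 2.16 in pancreas, 1.57 and 0.739 in LI, and 1.16 and 0.453 in SI (lung over SI 3.56 ± 0.55 log2, SE; adjusted p = 0.000274). A member 75360 bp upstream of *Itga4*, an integrin of lymphocyte homing (chr2:79179773-79180359), stood at 9.68 and 21.3 CPM in lung and at 1.91 and 2.44 CPM in LI. Both are tandem repeats in which lung replicate 2 was more than 2-fold above replicate 1.

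SI was the highest tissue in others. A member in an intron of *Tcf7*, which encodes TCF-1 (chr11:52273902-52274401), stood at 6.45 and 4.29 CPM in SI, 2.70 and 2.65 in LI, 2.41 and 2.37 in pancreas, 1.69 and 1.74 in lung, and 1.17 and 1.15 in BM (SI over BM 2.198 ± 0.40 log2, SE; edgeR adjusted p = 0.000857). A member 52819 bp upstream of *Bcl11b*, a factor of T cell and ILC2 identity (chr12:108055983-108056482), stood at 3.42 and 4.49 CPM in SI and 0.941 and 0.690 in lung. A member 102376 bp from the TSS of *Ets1* (chr9:32798138-32798688) was highest in pancreas (23.4 and 29.1 CPM) and lowest in SI (9.05 and 14.1 CPM), with LI replicate 2 at 23.2 CPM between the pancreas libraries and the rest.

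Members that share sequence were then compared as groups. Alignment of all members to each other (at least 80% identity over at least 300 bases) linked 689 of them, and 452 fell into 13 groups of 15 or more, lettered A to M by size. Groups F and H hold the satellite and telomere-type repeats and group E the 5S array. The other 10 are spread over 7 to 21 chromosomes each. Levels are given as the median over the group of each member's log2 CPM less its mean over the 10 libraries. The median share of unique words was 3.51% in group B, 3.97% in group G and 0% in group M. It was 35.5% in group C and 50.2% in group L. Members of a group are similar in sequence and so not independent of each other. The placing of their reads is uncertain where few words are unique.

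**Figure D5:**
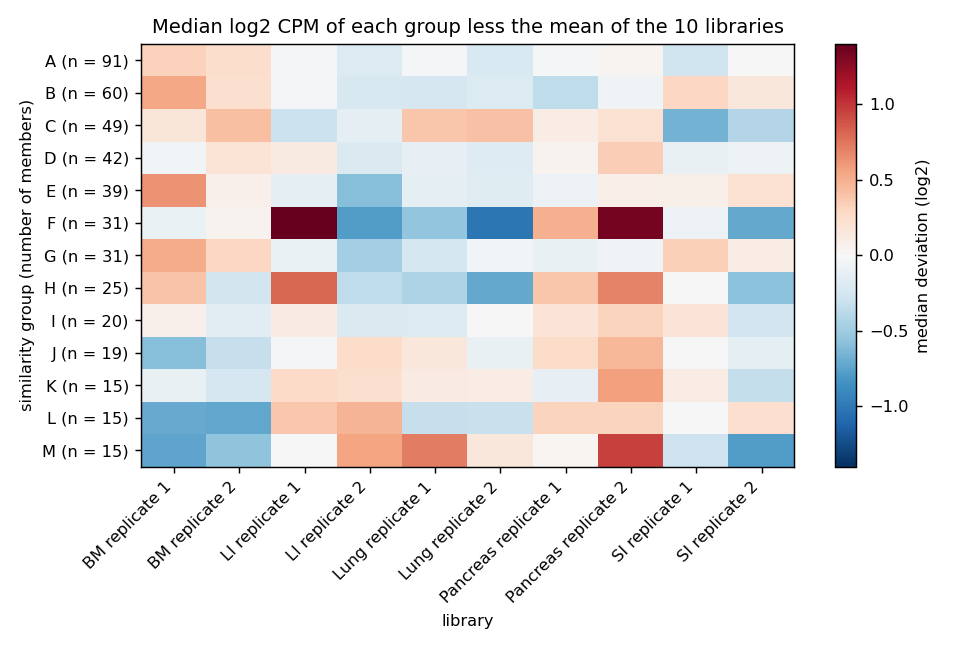
Colours give the median deviation (log2 CPM less each member's mean over the 10 libraries) of the 13 similarity groups (y axis, with their sizes) in each library (x axis). Group L is low in both BM libraries (-0.71 and -0.73) and high in both LI libraries, group C is low in both SI libraries, and groups F and H are high in LI replicate 1 and pancreas replicate 2.

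Group B (60 members) and group G (31 members) were higher in BM and SI. In group B the median deviation was 0.54 and 0.22 in BM, 0.29 and 0.15 in SI, and between -0.36 and -0.02 in the other 6 libraries. In group G it was 0.52 and 0.29 in BM, 0.33 and 0.11 in SI, and between -0.48 and -0.03 elsewhere. In both groups the 4 libraries of BM and SI were above the other 6. The edgeR test called 25 members of group B (41.7%) and 8 of group G (25.8%), both under the 44.2% of all regions. In the 2 groups, 7 and 4 members were highest in BM, against 4.5% of all regions. Without LI replicate 1 and pancreas replicate 2, 16 and 8 were called, and 7 and 1 were highest in BM. A GATA match was present in 54 of 60 (90%) and in 27 of 31 (87.1%), and an ETS match in 23 of the 31 in group G (74.2%).

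Group M (15 members), which holds a GATA match in 15 of 15, was low in BM and SI. Its median deviation was -0.735 and -0.56 in BM, -0.29 and -0.78 in SI, 0.01 and 0.55 in LI, 0.03 and 0.96 in pancreas, and 0.72 and 0.15 in lung. Of its members, 6 differed between tissues (40%, against 44.2% of all regions), and 0 were called lowest in BM or in SI. Groups with a GATA match in most copies were therefore found both above and below the other tissues in BM, and the 3 groups were not tested against each other.

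Group C (49 members) was lowest in SI. Its median deviation was -0.66 and -0.41 in SI, -0.30 and -0.13 in LI, 0.17 and 0.42 in BM, 0.11 and 0.22 in pancreas, and 0.39 and 0.40 in lung, so that both intestines were below the other 3 tissues. Of 49, 25 differed between tissues (51.0%, against 44.2% of all regions), 7 were lowest in SI and 4 highest in BM, and without LI replicate 1 and pancreas replicate 2 these were 24, 8 and 1. RUNX matches occurred in 45 (91.8%) and KLF matches in 46 (93.9%). Group A (91 members), with a KLF match in 70 (76.9%), had 23 members that differed (25.3%, against 44.2% of all regions), of which 5 were lowest in SI, 4 highest in BM and 3 highest in lung. In group K (15 members), 3 differed (20%, against 44.2% of all regions) and the same number were lowest in SI. Over all regions, 3.59% were lowest in SI, 4.5% highest in BM and 1.3% highest in lung.

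Group L (15 members) had the highest share of called members among the interspersed groups, 12 of 15 (80.0%), and 10 of 15 without LI replicate 1 and pancreas replicate 2. Of all regions, 44.2% were called with all 10 libraries. The median member of group L stood at 3.43 and 2.53 CPM in BM, 7.58 and 6.60 in LI, 3.76 and 4.44 CPM in lung, 8.13 and 8.52 CPM in pancreas, and 4.72 and 6.13 in SI. Both BM libraries were the lowest. Of the 15, 4 were lowest in BM, 2 highest in pancreas and 3 higher in both intestines, and without LI replicate 1 and pancreas replicate 2 the number highest in pancreas was 0. With all libraries, 6.63% of all regions were lowest in BM, 1.43% highest in pancreas and 2.18% higher in both intestines. In group L, AP-1 matches occurred in 13 (86.7%), and RUNX matches in 12 (80.0%). Group J (19 members on 11 chromosomes), in which every copy holds a RUNX and a KLF match, was also low in BM, at -0.59 and -0.32. Of its members, 7 differed (36.8%, against 44.2% of all regions), and 3 were lowest in BM.

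Not every group of copies held members that differed between tissues. In group D (42 members) edgeR called 0, with 3 at an unadjusted p under 0.05, and DESeq2 also called 0, with 3 unadjusted. In group I (20 members), each with a KLF match, edgeR and DESeq2 called 0, with 0 at an unadjusted p under 0.05, and edgeR called 1 without LI replicate 1 and pancreas replicate 2. A p above the threshold does not show that levels were equal, and the median member of group I ranged from 3.29 to 5.56 CPM over the libraries.

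The 3 members that were most alike in the 5 tissues stood near 2 CPM. The closest, 10126 bp from the TSS of *Mirlet7d* (chr13:48525738-48526237), had values of 1.52 to 2.80 CPM in the 10 libraries and an SD of 0.019 between the tissue means (log2). A member in an intron of *Gm36210* (chr7:4901164-4901663) lay between 1.98 and 2.53 CPM, with an SD of 0.063, and a member in an intron of *Dync1li1*, a dynein subunit (chr9:114710300-114710799), between 1.29 and 2.59 CPM, with an SD of 0.065. At promoters the 3 members with the highest level were those of *Ncoa4*, the receptor for the autophagy of ferritin (chr14:32159415-32160019, 34.2 to 54.6 CPM, edgeR adjusted p = 0.215), *AA388235* (chr17:33981097-33981616, 28.4 to 61.3 CPM, adjusted p = 0.00735) and *4930481A15Rik* (chr19:5406549-5407248, 28.9 to 62.6 CPM, adjusted p = 0.0401). All 3 had their highest value in BM replicate 1. The highest levels outside promoters, beside the *Abcb11* member, were those of satellite members, and the first of them (chr9:3023285-3023832) stood at 3057 and 747 CPM in LI, 1736 and 3484 in pancreas, 1050 and 1433 in BM, 914 and 656 in lung, and 1180 and 690 in SI (edgeR adjusted p = 0.0255).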

How the data were processed

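ATAC-seq counts of 10 libraries, 2 for each of 5 tissues, were analysed, with groups taken from the labels. Per the labels and the methods of the study, the authors checked reads with FastQC 0.11.9, mapped them to mm10 with Bowtie2 2.2.9, kept uniquely mapped reads, converted files with SAMtools 1.8, called peaks with MACS2 2.1.1, merged peaks that both libraries of a tissue shared, and deposited raw counts per merged peak without normalization. Removal of duplicates, filters on mitochondrial or blacklisted sequence and a shift for Tn5 are not given in the sources used here, nor is how reads that match several copies were handled. The authors' start positions count from 0 and were printed as counted from 1.

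Members and lists were chosen with earlier results of these data known. Masked bases, classes, RefSeq genes and TSSs and sequences come from the RefSeq GRCm38 genome and its annotation, after names and lengths of the chromosomes had been checked. It has no repeat names. Words of 24 bases were counted over the chromosomes and the mitochondrial genome. Similarity groups come from blastn 2.17.0.

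Tests were run in edgeR 4.0.16 over regions holding 1 count or more (TMM, glmQLFit, glmQLFTest, tissue as the only factor, all 10 libraries), with Benjamini-Hochberg adjustment over all 49981 regions. CPM uses TMM library sizes, and medians of log2 values use a pseudocount of 0.5 CPM. The SE of a log2 fold change is its size divided by the square root of its F. The labels call the replicates separate samples and the study calls them biological duplicates, of pooled mice. With simulated counts in which SI was raised in 200 of 49981 regions, the F test found 43 of 100 changed 2-fold and 99 of 100 changed 4-fold. The raised regions were drawn from all regions above a minimum mean count, and not from members alone. Members held fewer counts than the other regions (median total 883 against 1600), and the rate among members was not measured. Named members were, per tissue, the 3 highest and 2 lowest with the largest weakest difference whose libraries were all apart from the other 8, 3 of both intestines, 3 by level, 3 most alike, 3 at promoters, and up to 10 near listed ILC2 genes. DESeq2 1.42.0, other scalings and left-out libraries were tried as alternatives. The numbers of the replicates did not pair the libraries (r between their deviations from -0.18 to 0.19, above 0.1 in 4 of 10 pairs of tissues). Counting error is the least error of these values, and reads without molecular identifiers are not independent. Some items chosen by these rules are not reported here.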

Additional observations from a re-analysis of the deposited data

How the results depend on the processing

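Of the recomputed main values, 157 stayed within 1.5 times the reported count or on the same side of the threshold, 26 moved, and 0 reversed. Library size alone gave 7 members highest in LI, 38 in lung and 73 in SI, and shifted the median of all regions by -0.13 to 0.18 (log2) between tissues. Removing the trend with GC content and width gave 93 highest in BM, 8 in LI and 34 in lung. An adjusted p in each contrast gave 23 members in BM, 10 in lung, 6 in SI and 1 each in LI and pancreas, 84 lowest in 1 tissue and 2 of both intestines. Without LI replicate 1 and pancreas replicate 2 together, 19 were highest in pancreas. In partly unique members alone (chosen after seeing the data), 10 (0.685%) were highest in lung. Leaving out each library gave 511 to 819 repeat members that differ between tissues, 23 to 55 highest in BM, 15 to 111 in pancreas, 19 to 44 in SI, 7 to 26 in lung, 6 to 19 in LI, 139 to 223 lowest in 1 tissue and 9 to 24 of both intestines. A lone library is then assumed to vary like the others. The share of counts gave a ratio of 0.804 to 5.62 and an exact permutation p of 0.128 to 0.514. The replicate block, run although the numbers do not pair the libraries, gave 796 members that differed, 58 highest in BM, 43 in pancreas, 39 in SI, 22 in lung and 14 in LI, and 23 of both intestines. A minimum of 10 counts in 2 libraries removed no region (49981 tested). A robust fit (chosen after seeing the data) called 659 members. The causes were not tested.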
